A study of Danio rerio with 6 samples.

Results

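A set of 10 genes that mark and specify the early neural crest was read out in zebrafish (*Danio rerio*) embryos collected 1 day after fertilisation. They are *pax3a*, *foxd3*, *snai1b*, *snai2*, *sox9b*, *sox10*, *ets1*, *twist1a*, *twist1b* and *crestin*, chosen by name from the 47445 rows of the table of read counts. All 10 had a row, and each passed the filter on low counts, with 15 to 528 counts in every library. None of the 10 had a further row with the suffix -2, which marks a copy of a gene name elsewhere in the table. The groups were 3 samples labelled *rapgef1b* knockdown and 3 wild-type control samples, all at the same age. *rapgef1b* encodes an exchange factor that activates Rap GTPases, and the title of the study asks about its part in neural crest specification. The labels give neither the reagent used for the knockdown, nor whether controls received a control reagent, nor how many embryos made up a sample. They also do not say whether the replicates came from separate clutches, so p-values measure only the spread between these samples.

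The neural crest arises at the border of the neural plate, leaves the dorsal neural tube and forms pigment cells, peripheral neurons and glia, and much of the skeleton and connective tissue of the head. Border genes such as the *pax3* genes act first. They are followed by the specifiers, among them *foxd3*, the *snai* genes, *ets1*, the *twist1* genes and the SoxE genes *sox9* and *sox10*. In zebrafish, *foxd3* marks crest cells before they migrate, *sox10* is needed for the pigment, neuronal and glial lineages, and *crestin* is a transcript of premigratory and migrating crest cells. The genes of the set are called specifiers here for short, with *crestin* included as a marker. Most of these genes are also transcribed outside the crest, for example *sox10* in the inner ear, *ets1* in endothelium, *twist1a* and *twist1b* in mesoderm and *pax3a* in the dorsal neural tube. In RNA from embryos, fewer cells of a type and less RNA per cell cannot be told apart.

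Library totals ran from 2118413 to 2232625 counts in the libraries labelled knockdown and from 2042600 to 3809123 counts in the controls. Levels are given as CPM, which are counts brought to a common library size with TMM factors that correct for differences in library composition. The factors ran from 0.9996 to 1.031 in the libraries labelled knockdown and from 0.973 to 0.991 in the controls. The RNA of the targeted gene was not lower. *rapgef1b* had 144.4, 107 and 142 CPM in the libraries labelled knockdown, against 111, 113 and 111 CPM in the controls, so the groups are called by their labels throughout. The log2 difference of 0.24 (standard error 0.14) was not called, at an adjusted p-value of 0.386 (quasi-likelihood test in edgeR, adjusted by Benjamini-Hochberg over all tested genes, as for each adjusted edgeR p-value here).

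The 10 specifiers did not move together. *foxd3* rose 1.61-fold and *crestin* fell to 0.683 of its control level, and the other 8 were not called at an adjusted p-value under 0.05. Among the 15607 tested genes the called share was 4.29%, with 2.01% higher and 2.27% lower. Values of the 2 groups did not overlap for 5 of the 10 genes, where the share over all tested genes was 23.2%. *foxd3*, *snai1b*, *sox10* and *ets1* had all 3 libraries labelled knockdown above all 3 controls, and *crestin* had all 3 below. The median log2 fold change of the 10 genes was 0.083, against 0.011 over all tested genes, with 5 above 0 and 5 below. Their summed level was 589 ± 37.0 CPM in the libraries labelled knockdown and 556 ± 35.8 CPM in the controls (SD, n = 3 each), so the sums differed by less than the SD of either group.

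**Figure D1:**
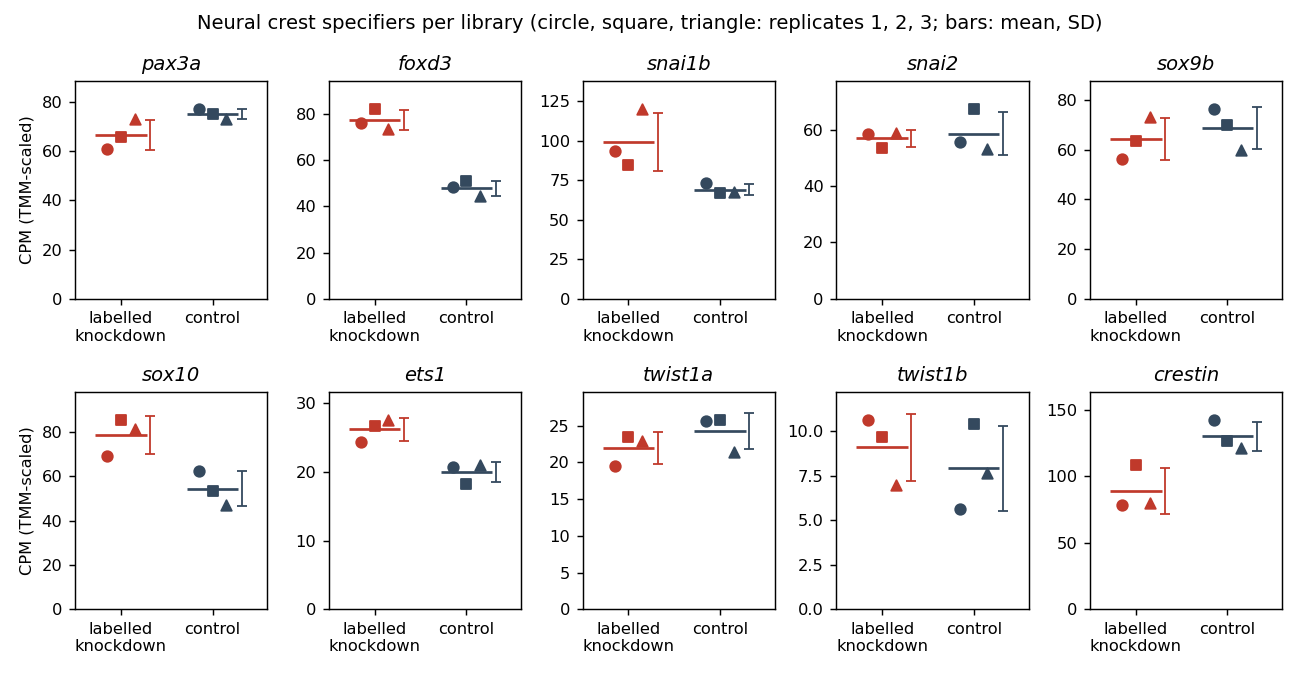
Level of each specifier in CPM (vertical axes, from 0, scaled per gene) in the 3 libraries labelled knockdown (red, left) and the 3 controls (dark blue, right), with horizontal lines at the means and bars of 1 SD. The 3 red points of *foxd3*, *snai1b*, *sox10* and *ets1* lie above all dark blue points, and those of *crestin* lie below them.

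The border gene *pax3a* encodes a paired-box transcription factor. In RNA from embryos it had 61.1, 65.9 and 73.3 CPM in the libraries labelled knockdown, against 77.0, 75.0 and 73.1 CPM in the controls. Replicate 3 labelled knockdown was level with the lowest control and the other replicates lay below the controls. The log2 fold change of *pax3a* was -0.17 with a 95% confidence interval from -0.47 to 0.12 and an adjusted edgeR p-value of 0.562. Its paralog *pax3b* had 7.62 ± 1.48 CPM in the libraries labelled knockdown and 11.0 ± 2.37 CPM in the controls (SD, n = 3 each), with an adjusted edgeR p-value of 0.356.

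*foxd3*, a forkhead factor that acts mainly as a repressor and keeps crest progenitors undifferentiated, was the specifier with the largest log2 fold change. It had 76.2, 82.0 and 73.7 CPM in the libraries labelled knockdown, against 48.2, 50.9 and 44.5 CPM in the controls. The groups were well apart: the lowest library labelled knockdown stood 22.8 CPM above the highest control. The replicates lay close together within each group, with a coefficient of variation of 5.51% in the libraries labelled knockdown and 6.70% in the controls. The log2 fold change of *foxd3* was 0.69 with a 95% confidence interval from 0.38 to 0.99 (standard error 0.14, adjusted edgeR p-value 0.00923). This placed it at rank 206 of the 15607 tested genes by p-value. It was not called without control replicate 1, at 0.0612, or control replicate 3, at 0.0555, where its log2 fold change was 0.69 and 0.64. In RefSeq the entry of *itgb3bp* overlaps *foxd3*, and its part in the *foxd3* counts was not tested.

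The *snai* genes encode zinc-finger repressors that act in the change from epithelial to migratory cells. *snai1b* had 93.4, 84.8 and 119.9 CPM in the libraries labelled knockdown, against 73.0, 66.9 and 67.5 CPM in the controls. All 3 libraries labelled knockdown were higher, and they spread more, with a coefficient of variation of 18.4%, against 4.88% in the controls. The log2 fold change of *snai1b* was 0.52 with a 95% confidence interval from 0.21 to 0.83, and its adjusted edgeR p-value of 0.0531 just missed the threshold. *snai2* had 58.5, 53.4 and 58.8 CPM in the libraries labelled knockdown, against 55.5, 67.2 and 53.2 CPM in the controls. Its groups overlapped throughout, with a log2 fold change of -0.048, a 95% confidence interval from -0.36 to 0.27 and an adjusted edgeR p-value of 0.909. The further paralog *snai1a*, which is transcribed in mesoderm as well, rose to 70.4 ± 16.7 CPM in the libraries labelled knockdown, against 43.5 ± 5.63 CPM in the controls (SD, n = 3 each). On the log2 scale *snai1a* was higher by 0.71 (adjusted edgeR p-value 0.0265). It was not called without control replicate 1, at 0.17, control replicate 2, at 0.137, or knockdown replicate 3, at 0.133. The fold changes of *snai1a* and *snai1b* thus had the same sign.

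Of the SoxE genes, *sox10* had 69.1, 85.2 and 81.2 CPM in the libraries labelled knockdown, against 62.5, 53.5 and 47.1 CPM in the controls. All libraries labelled knockdown lay above the controls, the closest being replicate 1 labelled knockdown and control replicate 1. The log2 fold change of *sox10* was 0.52 with a 95% confidence interval from 0.20 to 0.84 and an adjusted edgeR p-value of 0.0617. *sox9b*, which acts in crest and in cartilage precursors, had 56.2, 63.6 and 73.3 CPM in the libraries labelled knockdown, against 76.2, 70.1 and 59.8 CPM in the controls. Its groups overlapped, with a log2 fold change of -0.11, a 95% confidence interval from -0.43 to 0.21 and an adjusted edgeR p-value of 0.774. The paralog *sox9a* had 86.5 ± 5.67 CPM in the libraries labelled knockdown and 94.0 ± 6.82 CPM in the controls (SD, n = 3 each), a log2 difference of -0.12 (adjusted edgeR p-value 0.691). Neither *sox9* gene was called. With library sizes alone, without TMM factors, the adjusted edgeR p-values of *sox10* and *snai1b* were 0.0372 and 0.0333. Neither was called with DESeq2 size factors, at 0.0636 and 0.0549, or with upper quartile factors, at 0.0676 and 0.057. The DESeq2 Wald test did not call them either, at adjusted p-values of 0.135 and 0.103, nor did limma-voom, at 0.0704 and 0.0689. With copy rows summed over the whole table, both were called, at 0.0492 and 0.0415. Leaving out replicate 1 labelled knockdown gave 0.0362 for *sox10* and 0.0481 for *snai1b*, and leaving out replicate 2 labelled knockdown gave 0.0256 for *snai1b*. Of the 6 fits that left out a library, these were the only ones with a call, 1 for *sox10* and 2 for *snai1b*. The adjusted edgeR p-values of the others ran up to 0.242 for *sox10* and 0.244 for *snai1b*. Without replicate 3 labelled knockdown the log2 fold change of *snai1b* was 0.36.

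*ets1*, an ETS-domain factor of the cranial crest and of endothelium, had 24.4, 26.7 and 27.5 CPM in the libraries labelled knockdown, against 20.7, 18.3 and 21.0 CPM in the controls. The groups did not overlap, and each was tight. The log2 fold change of *ets1* was 0.39 with a 95% confidence interval from -0.010 to 0.79 and an adjusted edgeR p-value of 0.292. The 12 endothelial markers, all tested, had a median log2 fold change of -0.21 with none called in either direction, where 4.29% of the whole table was. Of these 12 markers, 9 were below 0 and 3 above, the highest being *etv2* at 0.59 (adjusted edgeR p-value 0.0752). Their summed level ran from 280 to 353 CPM in the libraries labelled knockdown and from 330.4 to 361 CPM in the controls, and their part in the *ets1* values was not tested.

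The *twist1* genes encode basic helix-loop-helix factors of head mesenchyme. *twist1a* had 19.5, 23.5 and 22.9 CPM in the libraries labelled knockdown, against 25.6, 25.8 and 21.5 CPM in the controls. *twist1b* rested on only 15 to 32 counts per library, and had 10.6, 9.67 and 7.00 CPM in the libraries labelled knockdown, against 5.66, 10.4 and 7.67 CPM in the controls. Both overlapped between groups. Their log2 fold changes were -0.16 and 0.21, with 95% confidence intervals from -0.57 to 0.25 and from -0.44 to 0.87, and neither was called (adjusted edgeR p-values 0.726 and 0.78). The sign of *twist1b* turned without control replicate 1, at -0.021. RefSeq lists each of these symbols among the synonyms of the other, so the names are those of the count table.

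*crestin*, included as a crest marker, had the lowest log2 fold change of the set. It had 78.4, 108.7 and 79.8 CPM in the libraries labelled knockdown, against 142, 127 and 121 CPM in the controls. All libraries labelled knockdown were below the controls, and replicate 2 among them was the nearest. The log2 fold change of *crestin* was -0.55 with a 95% confidence interval from -0.86 to -0.24 (standard error 0.15, adjusted edgeR p-value 0.037). The call depended on single libraries. It was lost without control replicate 1, 2 or 3, at adjusted p-values of 0.204, 0.133 and 0.08, and without replicate 1 or 3 labelled knockdown, at 0.0847 and 0.102. It was also lost with library sizes alone, at 0.0553. *crestin* belongs to a repeated, retroelement-derived family in the zebrafish genome, so reads may be shared between copies and its count is uncertain.

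**Figure D2:**
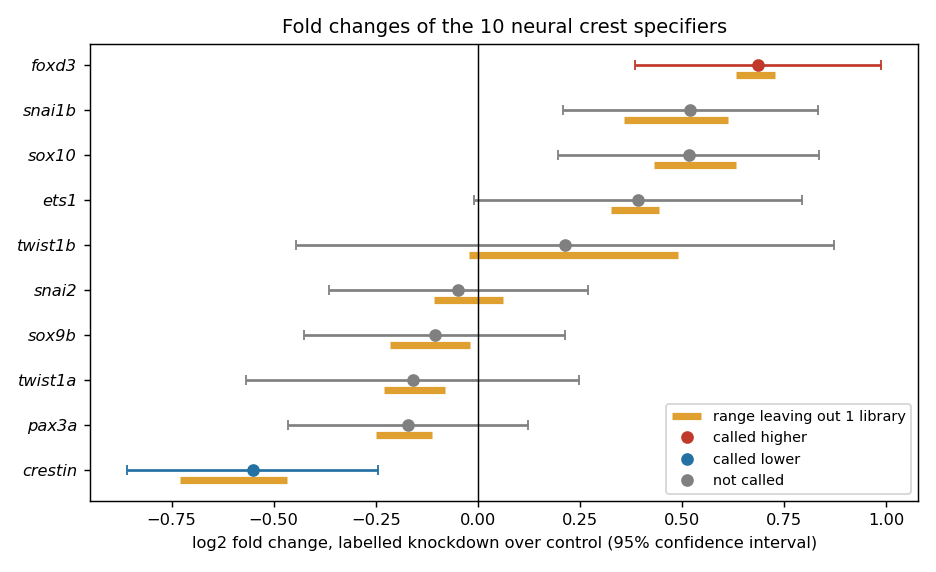
Log2 fold change of each specifier, libraries labelled knockdown over controls (points, horizontal axis), with 95% confidence intervals (thin bars), and the range of the estimate when each of the 6 libraries was left out in turn (thick orange bars). *foxd3* at 0.69 and *crestin* at -0.55 were called, and the orange bars of *snai2* and *twist1b* cross 0.

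The 3 libraries labelled knockdown were not ordered alike for each gene. Relative to the control mean on the log2 CPM scale, *foxd3* stood at 0.66, 0.77 and 0.62 in replicates 1, 2 and 3. *crestin* stood at -0.72, -0.25 and -0.70, so the replicate in which *foxd3* was highest had the smallest deviation of *crestin*. *snai1b* stood at 0.43, 0.29 and 0.79, and *sox10* at 0.35, 0.65 and 0.58. The replicate highest for *snai1b* was thus replicate 3, and that highest for *sox10* was replicate 2. Whether the replicates differed was not tested.

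Ratios of 2 genes within a library do not depend on how libraries are scaled, but they are not corrected for transcript length, so each ratio is compared only across libraries. The ratio of *foxd3* to *crestin* counts was 0.972, 0.754 and 0.924 in the libraries labelled knockdown, against 0.339, 0.402 and 0.367 in the controls. Thus *foxd3* had nearly as many counts as *crestin* in replicates 1 and 3 labelled knockdown, and fewer in replicate 2. In the controls it had well under that. The log2 ratio differed by 1.24, with means of -0.19 ± 0.19 in the libraries labelled knockdown and -1.43 ± 0.12 in the controls (SD, n = 3 each). The exact two-sided permutation test gave p = 0.1, the smallest that 3 against 3 samples allow, and 0.225 after adjustment over the 9 ratios computed. The fold changes of both genes were known when this pair was set, so the ratio describes the libraries and is not further evidence.

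The ratio of *sox10* to *crestin* counts was 0.881, 0.784 and 1.02 in the libraries labelled knockdown, against 0.439, 0.423 and 0.388 in the controls. The ratio of *sox10* to *sox9b* was 1.23, 1.34 and 1.11 in the libraries labelled knockdown, against 0.82, 0.763 and 0.786 in the controls. The ratio of *snai1b* to *snai2* was 1.6, 1.59 and 2.04 in the libraries labelled knockdown, against 1.32, 0.995 and 1.27 in the controls. These 3 pairs, chosen after the values were seen, also had groups that did not overlap, each at an exact permutation p of 0.1. By contrast, the ratio of *foxd3* to *sox10* overlapped, with 1.1, 0.962 and 0.908 in the libraries labelled knockdown and 0.772, 0.951 and 0.946 in the controls. Its log2 difference was 0.16 at an exact two-sided permutation p of 0.4. The ratios of *twist1b* to *twist1a*, *snai1b* to *snai1a*, *sox9b* to *sox9a* and *pax3a* to *pax3b* overlapped as well, at exact permutation p-values from 0.2 to 0.7.

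**Figure D3:**
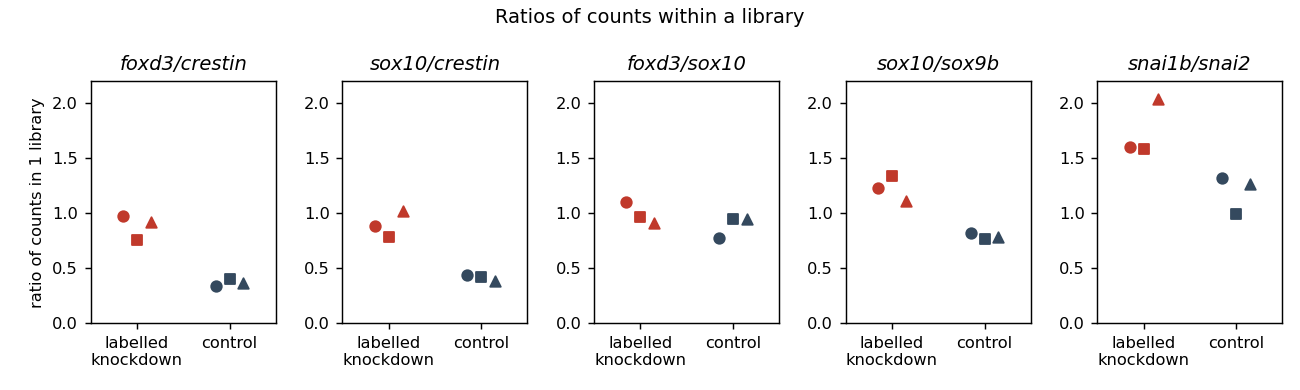
Ratio of the counts of 2 specifiers within each library (vertical axis, from 0), for the 3 libraries labelled knockdown (red, left) and the 3 controls (dark blue, right); circles, squares and triangles are replicates 1, 2 and 3. The ratios of *foxd3* and *sox10* to *crestin* lie from 0.754 to 1.02 in red and from 0.339 to 0.439 in dark blue, and only the *foxd3* to *sox10* panel has groups that overlap.

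The make-up of the specifier counts shifted accordingly. *crestin* made up 15.1% ± 2.63 of the counts of the 10 genes in the libraries labelled knockdown and 23.4% ± 0.917 in the controls (SD, n = 3 each). *foxd3* made up 13.1% ± 1.06 in the libraries labelled knockdown and 8.61% ± 0.397 in the controls. *sox10* made up 13.3% ± 0.761 in the libraries labelled knockdown and 9.75% ± 0.806 in the controls, and *snai1b* 16.8% ± 2.70 and 12.5% ± 0.613. In the controls *crestin* gave the most counts of the 10 in each library, whereas *snai1b* gave more than *crestin* in replicates 1 and 3 labelled knockdown. Shares within a fixed total are not independent, and these are shares of counts, not of molecules per length.

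The genes whose centred log2 CPM over the 6 libraries lay closest to a specifier were sought among the 14959 other tested genes with at least 5 CPM on average. Closest to *foxd3* were *zgc:100846*, *fam160a1a-2* and *mrps10*, with root mean square differences from 0.067 to 0.077. Closest to *sox10* were *heatr3*, *rbm48* and *junba*, from 0.052 to 0.057, and closest to *crestin* were *psmd4a*, *calm2b* and *sh2d3ca*, from 0.044 to 0.059. None of these 9 genes was called, the nearest to a call being *psmd4a*, which was lower by a log2 fold change of -0.62 (adjusted edgeR p-value 0.0505). No other specifier was among the nearest 3 of any of the 3 genes.

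Further genes of the crest's border, specification and migration were taken as a list of 34, of which 33 had a row and 30 were tested. Of these, 2 were called higher, 2 were called lower and 26 were not called, set beside the 4.29% of the whole table. The list held 12 genes above 0 and 18 below, with a median log2 fold change of -0.053. *pax7b*, a paired-box factor of crest and of muscle progenitors, fell by 1.18 on the log2 scale, with 25.3 ± 8.29 CPM in the libraries labelled knockdown and 57.7 ± 2.33 CPM in the controls (SD, n = 3 each) and an adjusted edgeR p-value of 0.00174. *tfap2e*, of the Tfap2 family, fell by 1.02 with an adjusted p-value of 0.0429. Beside *snai1a*, *ednrab*, an endothelin receptor of crest-derived arch cells, rose to 64.7 ± 5.06 CPM in the libraries labelled knockdown, against 44.4 ± 1.78 CPM in the controls (SD, n = 3 each), at an adjusted edgeR p-value of 0.0432. Of these, *pax7b* alone was called without each library in turn. Both *tfap2e* and *ednrab* lost their calls without any library other than replicate 2 labelled knockdown, at adjusted p-values up to 0.184 and 0.221, each without control replicate 2. By DESeq2 they were not called either, at 0.146 and 0.11. Among genes upstream of or beside the specifiers, *tfap2a* had 152 ± 4.65 CPM in the libraries labelled knockdown and 161 ± 2.98 CPM in the controls (SD, n = 3 each), and was not called at an adjusted edgeR p-value of 0.795.

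The 3 lists of crest derivatives held 11 calls among 34 tested genes, where 2.27% of the whole table was called lower. All 11 were lower in the libraries labelled knockdown. These lists were chosen with earlier results of these data known, so the counts only describe them. The listed genes were not tested against the specifiers. Whether the RNA of these genes came from crest-derived or from other cells of the embryo was not tested. Of 14 tested pigment cell genes, 7 were called lower and 0 higher, where 2.27% of the whole table was called lower, and the median log2 fold change was -1.16. Only *tfec*, at a log2 fold change of 0.31, was above 0, and 13 were below. *tfec*, *kita* at -0.18 and *ltk* at -0.050 were among the 7 not called. The summed level of all 16 pigment cell genes of the list, the untested ones included, ran from 216 to 370 CPM in the libraries labelled knockdown and from 635 to 719 CPM in the controls. The melanin synthesis gene *tyrp1b* and the pteridine synthesis gene *gch2* had the lowest values, with log2 fold changes of -2.08 and -1.80 (adjusted edgeR p-values 4.5e-05 and 2.38e-05). *mitfa*, the melanophore regulator that Sox10 activates in zebrafish, had 9.90 ± 1.80 CPM in the libraries labelled knockdown and 16.8 ± 1.24 CPM in the controls (SD, n = 3 each). It was not called, at an adjusted edgeR p-value of 0.089. The fold changes of *mitfa* and *sox10* had opposite signs, but neither gene was called, and a link between them was not tested.

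Of 9 tested genes of the pharyngeal arch mesenchyme, 3 were called lower and 0 higher, where 2.27% of the whole table was called lower, with a median log2 fold change of -0.61. The list held 6 tested genes below 0 and 3 above, the highest being *hand2* at 0.15 (adjusted edgeR p-value 0.774). *grem2b*, a BMP antagonist, and *dlx1a*, a homeobox gene, fell by 1.05 and 1.01 on the log2 scale, with adjusted edgeR p-values of 0.0441 and 0.0311. *grem2b* was called in 1 of the 6 fits that left out a library and *dlx1a* in 2, with adjusted p-values up to 0.207 and 0.184, each without control replicate 2. Both also lost their calls by DESeq2, at 0.146 for *grem2b* and 0.0916 for *dlx1a*, and by limma-voom, at 0.0853 and 0.0523. *grem2b* lost it further with library sizes alone, at 0.0532, and after every library was thinned to the smallest total, at 0.0908. Of 11 tested genes listed for crest-derived glia and peripheral neurons, 10 were not called. The other, *phox2bb*, an autonomic neuron regulator, was called lower, beside the same 2.27%. It stood at -0.87 on the log2 scale (adjusted edgeR p-value 0.0153). The 11 tested genes had a median log2 fold change of -0.20, with 7 below 0 and 4 above. The highest was *prdm14* at 0.81, which was not called (adjusted edgeR p-value 0.123). The glial genes *mpz* and *plp1b* of this list, at 0 to 7 counts per library, were not tested. Whether the *phox2bb* RNA came from crest-derived or from other neurons was not tested either. The call of *phox2bb* was lost when control replicate 1 (0.0936), control replicate 2 (0.0674) or knockdown replicate 3 (0.0502) was left out.

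**Figure D4:**
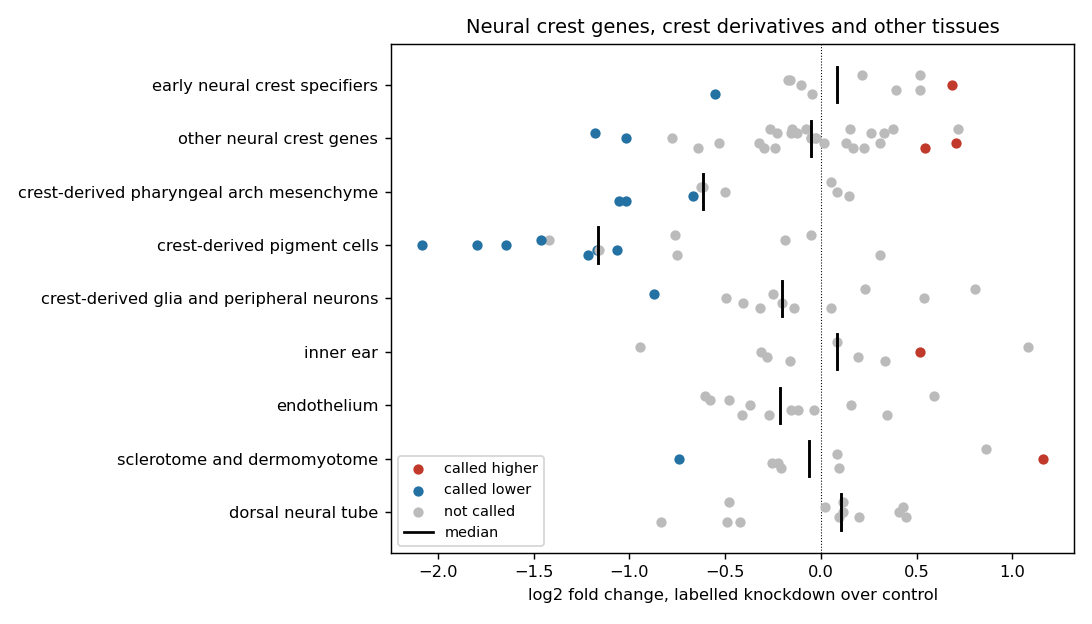
Log2 fold changes (horizontal axis, libraries labelled knockdown over controls) of the tested genes of each list (rows), with called genes in red or blue, others in grey and medians as black lines; vertical scatter within a row has no meaning. The specifiers centre at 0.083, the pigment cell genes at -1.16 and the arch mesenchyme genes at -0.61.

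Tissues other than crest that transcribe some of the specifiers were described with further markers. The inner ear, a site of *sox10* transcription, had 1 of 9 tested markers called higher, where 2.01% of the whole table was. This was *stm*, which encodes an otolith matrix protein, with a log2 fold change of 0.52 (adjusted edgeR p-value 0.0432). The 9 tested markers had a median log2 fold change of 0.084, with 5 above 0 and 4 below. The largest changes, 1.08 for *tecta* and -0.94 for *otomp*, were not called (adjusted edgeR p-values 0.0565 and 0.0712). *stm* lost its call without any library other than replicate 2 labelled knockdown, at up to 0.247 without control replicate 1. It was also lost by DESeq2, at 0.0645, by limma-voom, at 0.0537, without robust estimation of the dispersion, at 0.0502, and after thinning, at 0.0604. The summed level of the 11 inner ear markers with a row ran from 379 to 441 CPM in the libraries labelled knockdown and from 358 to 408 CPM in the controls, and *atoh1a* was at 0 in all libraries. Their part in the *sox10* values was not tested.

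The sclerotome and dermomyotome, where *twist1* and *pax3* genes are transcribed, had 8 tested markers with 1 called higher and 1 called lower, where the whole table had 2.01% called higher and 2.27% lower. *tcf15*, a somite regulator, rose by 1.16 on the log2 scale at an adjusted edgeR p-value of 0.031, and *matn4*, a matrix protein gene, fell by 0.74 at 0.0115. Leaving out replicate 3 labelled knockdown moved *tcf15* to 0.76 at an adjusted p-value of 0.21, and its call was lost too when control replicate 1 or 2 was left out, at 0.183 and 0.153. DESeq2, at 0.0575, and thinning, at 0.117, did not call *tcf15* either. The call of *matn4* was lost when control replicate 1 or 2 was left out, at 0.0539 and 0.0803. The median log2 fold change of the 8 tested markers was -0.062, with 4 above 0 and 4 below. The summed level of all 11 markers, the untested ones included, ran from 265 to 316 CPM in the libraries labelled knockdown and from 355 to 381 CPM in the controls. Without *matn4* the sum of the other 10 overlapped, from 127 to 161 CPM in the libraries labelled knockdown and from 121 to 141 CPM in the controls. The 12 dorsal neural tube markers had a median log2 fold change of 0.10, and none was called. Their summed level ran from 364 to 417 CPM in the libraries labelled knockdown and from 400.0 to 454 CPM in the controls. The part of these tissues in the specifier values was not tested.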

How the data were processed

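The authors deposited raw read counts in 1 table of gene names by libraries, made from ribosomal RNA-depleted libraries, per the labels' protocols. The submitters' processing notes list FastQC, cutadapt, STAR, DESeq2 and the build GRCz11 without their roles. The counting tool, annotation and strand setting are not given in the sources used here. RefSeq's GRCz12tu has entries that overlap *foxd3*, *sox10* and *crestin*, and the strand of these entries was not compared. Reads of the overlapping entries could not be told apart here. Samples were grouped by title, since the description of the third control repeats a replicate number. Columns were matched by library name.

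Counts were filtered with filterByExpr (minimum count 10, total 15), scaled with TMM over the tested rows and tested with edgeR 4.0.16 (R 4.3.3) by the quasi-likelihood test with robust=TRUE. P-values were adjusted over all 15607 tested genes. The standard error is the log2 fold change divided by the square root of F. Log2 CPM used a prior count of 2. Ratios were tested by exact permutation over samples. Alternatives used DESeq2 1.42.0, limma-voom (limma 3.58.1), other scaling, filters and dispersion, a replicate block, summed copy rows, single libraries left out and, chosen after seeing the data, thinned libraries. In simulated data for 15248 genes, a log2 change of 1 was recovered for 62.6% of 190 altered genes, with 10 unaltered genes called. That share covers genes of all levels, and the estimated change of every specifier was smaller. It therefore does not give how often changes of the size seen in the specifiers would be called.

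The members and lists were chosen with earlier results of these data known. Named genes were all members, *rapgef1b*, up to 6 called genes with the largest change of the further crest list, up to 2 of each other list, and the 3 genes most like *foxd3*, *sox10* and *crestin*. The paralogs, *tfap2a*, *mitfa* and the other uncalled or untested genes named from the lists were chosen after their values were seen. Totals of 2042600 to 3809123 counts limit precision for *twist1b* most, at 15 to 32 counts. Figures were drawn with matplotlib 3.10.9.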

Additional observations from a re-analysis of the deposited data

How the results depend on the processing

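Of 170 estimates of the 10 specifiers under alternatives, 150 kept their direction and their side of the threshold, 9 lost and 8 gained a call, and 3 reversed. Only *foxd3* and *crestin* had a call to lose. *foxd3* was called in 15 of its 17 alternatives and *crestin* in 10 of 17. The causes were not tested. With library sizes alone, 3 specifiers were called higher and 0 lower, with *sox10* at 0.57, *snai1b* at 0.58, *crestin* at -0.50 and *snai2* reversed at 0.0093 on the log2 scale, while the median of all genes was 0.067. Without a filter, 2 were called higher, with *snai1b* at 0.50. With copy rows summed, 3 were called higher, with *sox10* and *snai1b* at 0.52 each. With libraries thinned to the smallest, 0 were called lower, with *crestin* at -0.46. Leaving out single libraries gave 0 to 3 specifiers called higher and 0 to 1 lower. The log2 fold changes then ran from 0.63 to 0.73 for *foxd3*, 0.43 to 0.63 for *sox10*, 0.36 to 0.61 for *snai1b*, -0.73 to -0.47 for *crestin*, -0.11 to 0.061 for *snai2* (reversed without control replicate 2) and -0.021 to 0.49 for *twist1b* (reversed without control replicate 1). Of the further crest genes, 1 was called higher by DESeq2, without a filter and after thinning, against 2, and 1 was called lower with library sizes alone, by DESeq2 and by limma-voom, against 2, while 3 were called lower without a filter and with copy rows summed. The counts ran from 0 to 2 higher and 1 to 2 lower without single libraries. Over all genes, DESeq2 called 203 higher, against 314, no filter gave 572 lower, against 355, and leaving out single libraries gave 93 to 405 higher and 122 to 509 lower. The log2 ratio of *foxd3* to *crestin* differed by 1.17 to 1.35, and that of *foxd3* to *sox10* by 0.057 to 0.22, without single libraries.

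Same-numbered libraries had correlations of -0.014, 0.066 and 0.069 between deviations from the group means across genes. Libraries of unlike number had correlations from -0.098 to 0.052. All were small, not every library correlated best with its own number, and whether the replicates were paired was not tested. With the replicate block, 338 genes were called higher and 435 lower, and 1 specifier was called in each direction, with *foxd3* at 0.69 and *crestin* at -0.56.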
